A study of Sus scrofa with 12 samples.

Results

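CYTB (ENSSSCG00000018094) and UQCRC2 (ENSSSCG00000007845) encode subunits of respiratory complex III, and both were listed as cut transcripts in loin muscle of pigs. They are 2 of the 1413 genes listed as targets in 12 degradome libraries. The members were chosen by listing: they are all rows that name either gene, 341 of 19855 rows, of which 333 name CYTB and 8 name UQCRC2. The rows describe only 3 cuts. CYTB was paired with miR-206 at one position and with miR-1343 at another, and UQCRC2 with miR-4331-5p at a single position. Because listing selected these genes, how often they are listed is a description and was not tested.

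Each library was made by parallel analysis of RNA ends (PARE), which sequences the 5′ ends that cleavage leaves on transcripts, and PAREsnip paired those ends with small RNAs. The RNA was total RNA from loin muscle of female pigs labelled day 180, all kept under the same feeding and housing and killed at a common live weight. Hampshire, Pietrain and Polish Large White pigs gave 4 libraries each, 2 titled low MM and 2 titled high MM. The abbreviation MM has no expansion in the labels, while the title of the series is about muscle mass. Shear force is labelled light in the low-MM and heavy in the high-MM animals. For the 4 Pietrain libraries the workbook's tab names exchange high and low, and the titles were followed here.

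Complex III, the cytochrome bc1 complex, passes electrons from ubiquinol to cytochrome c and pumps protons across the inner mitochondrial membrane. CYTB, its haem-bearing core, is the only subunit of the complex encoded in mitochondrial DNA. UQCRC2 is core protein 2, a nuclear-encoded subunit on the matrix side that resembles mitochondrial processing peptidases. miR-206 belongs to the muscle microRNAs and is made almost entirely in skeletal muscle. Loin muscle draws on both glycolysis and mitochondrial respiration.

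The tables list retained interactions only, from 699 to 2949 rows in a library, so a gene that is missing was unlisted and not measured at 0. Read depth is unknown. Rows fall into 2 classes by normalized over weighted abundance, called deeper here where that ratio is under 0.15 and shallower where it is higher. Of the skeletal muscle markers 9 of 12 were listed, with ACTA1, the skeletal actin, in 9 libraries and DES, desmin, in 6. NEB was in 5 libraries, MYH2 in 4, TNNI2 in 2, and MYH4, MYH7, CKM and TTN in 1 each. Of the markers of other cell types, 1 of 5 was listed for adipocytes, 1 of 5 for fibroblasts and 2 of 6 for blood and immune cells. These were LPL in 2 libraries, COL3A1 in 4, and CD14 and ALAS2 in 1 each, so COL3A1 was listed more widely than several muscle markers. None of 4 was listed for endothelium and none of 4 for heart. In bulk tissue, fewer cells of a type and less RNA per cell cannot be told apart.

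The miR-206 cut in CYTB was listed at mitochondrial position 16421, the sum of the listed window start and cleavage position, in 10 libraries and all 3 breeds. No source used here names the genome build. A window is the stretch of sequence that was searched, and overlapping windows around a cut each give a row. The cut held 146 rows from 48 windows, whose starts ran from 16354 to 16408, and the cut lay 13 to 67 bases into them. The miR-1343 cut was listed at position 16219, 202 bases before, in 5 libraries. It held 187 rows from 54 windows, with starts from 16153 to 16206. All 333 CYTB rows name strand 1.

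PAREsnip ranks each row in categories from 0, the strongest, to 4, in which a position is supported by a single fragment. Every one of the 3844 rows of category 4 in the tables had a fragment abundance of 1. At the miR-206 cut 108 rows were of category 2, 9 of category 3, 28 of category 4, none of category 1 and a single row of category 0. At the miR-1343 cut 102 rows were of category 2, 53 of category 3 and 32 of category 4. Category 2 therefore made up 63.1% of CYTB rows, against 38.1% of all rows, and categories 0 and 1 held 1 CYTB row against 9.18% of all rows. The CYTB rows are overlapping windows of the same 2 cuts, so these shares count windows and not separate cuts or animals. They were not tested and are not a trait of CYTB. The only category 0 row came from Polish Large White low MM replicate 1, from a window that reached the cut at base 13, with a fragment abundance of 9. Category shifted with the window: in Hampshire high MM replicate 2 the same miR-1343 cut, with an abundance of 6, fell in category 2 in some windows and category 3 in others.

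**Figure D1:**
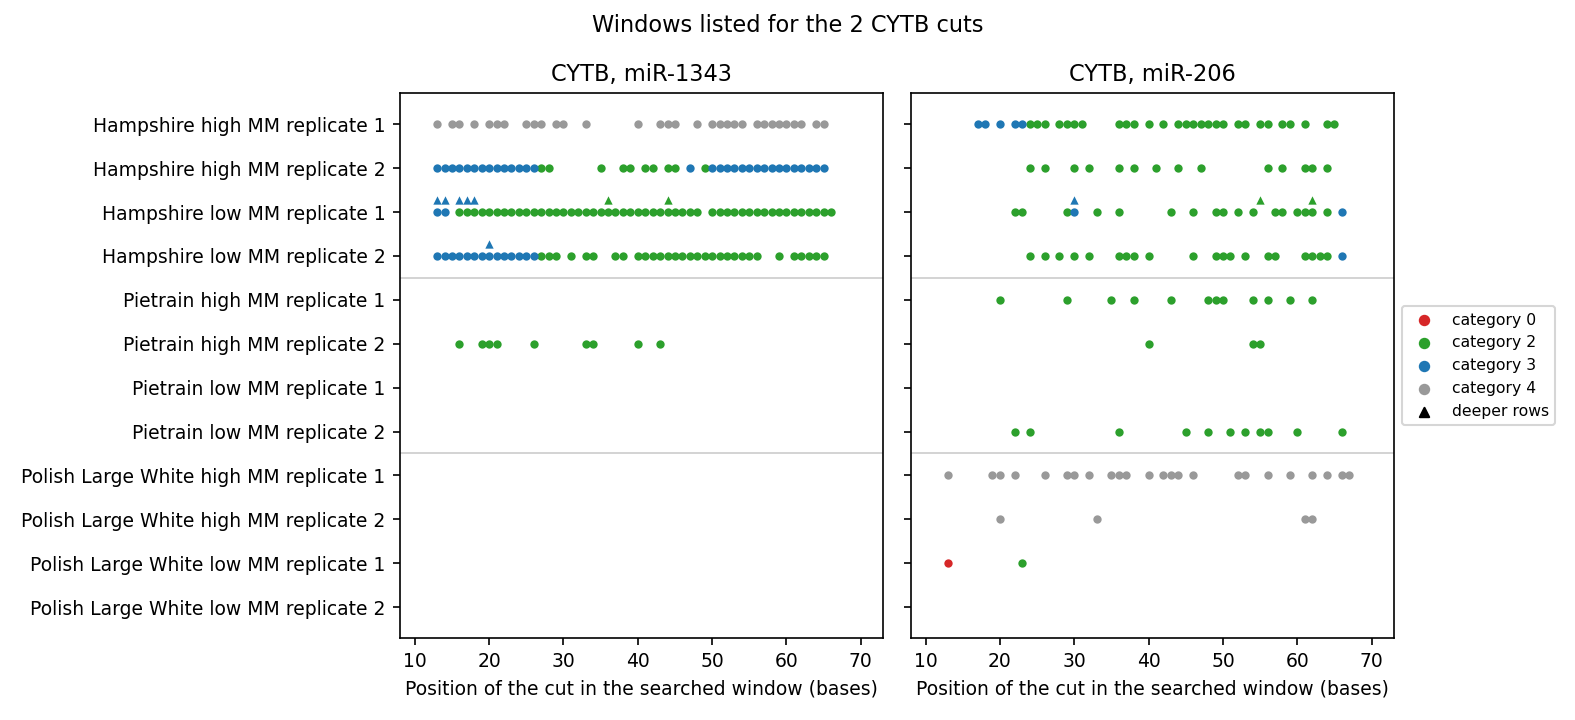
Windows listed for the miR-1343 cut (left) and the miR-206 cut (right) in CYTB, by library, with the position of the cut in the searched window in bases on the horizontal axis. Colours give the category and triangles mark rows of the deeper class; the miR-1343 cut fills from 32 to 52 windows in each Hampshire library, 9 in Pietrain high MM replicate 2, and none in Polish Large White.

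Pairing was loose at both CYTB cuts. The alignment score counts mispairing, and the highest score in the tables was 4.5, held by 32.1% of the 2935 interactions. All 187 rows of the miR-1343 cut scored 4.5, as did 145 of the 146 rows of the miR-206 cut. The remaining row, in Polish Large White high MM replicate 1, scored 4. The deposited p-values of the miR-206 rows were 0.05 in 55 of the 146 rows, which is the upper limit of the tables, and 0 in 2 rows. At the miR-1343 cut 32 of 187 rows stood at 0.05 and 23 at 0.

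Fragment abundance divided by weighted abundance is called the number of matching positions here, although the sources do not say whether it counts places in the genome or overlapping windows. It was 30 to 46 at the miR-206 cut and 61.8 to 66 at the miR-1343 cut. The mitochondrial interactions as a whole ran from 30 to 68 with a median of 61, so the CYTB cuts spanned nearly that whole range. The CYTB cuts had 48 and 54 windows, so these values do not show that a fragment matched more than its own site.

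Both microRNAs were listed almost solely with CYTB. miR-206 had 154 rows in the tables, of which 94.8% named CYTB, and its other rows included positions in SGMS2 and SLAIN2, each in 1 library. miR-1343 had 209 rows, of which 89.5% named CYTB, and the rest came from 2 positions, one in GBF1 and the other named for GPX3 or TNIP1, each in 1 library. SGMS2 encodes a sphingomyelin synthase and GPX3 the secreted glutathione peroxidase.

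Normalized weighted abundance, the authors' scaled value of a cut with no unit given, differed widely between animals at the miR-206 cut. The values below are the largest row of the cut in a library. The 10 libraries had a mean of 0.196 ± 0.227 (SD, n = 10), with a lowest value of 0.00779, a median of 0.117 and a highest of 0.684, an 87.8-fold range. In Hampshire the low-MM libraries had 0.684 and 0.504 and the high-MM libraries 0.0361 and 0.235. Both low-MM values lay above both high-MM values. Polish Large White low MM replicate 1 had 0.0517, and the high-MM libraries 0.00779 and 0.00838. The low-MM value was again the higher, and the high-MM values both stood at a single fragment, the least that can be listed. In Pietrain the order was turned, with 0.132 and 0.197 at high MM and 0.102 in low MM replicate 2. Pietrain low MM replicate 1 and Polish Large White low MM replicate 2 did not list the cut.

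**Figure D2:**
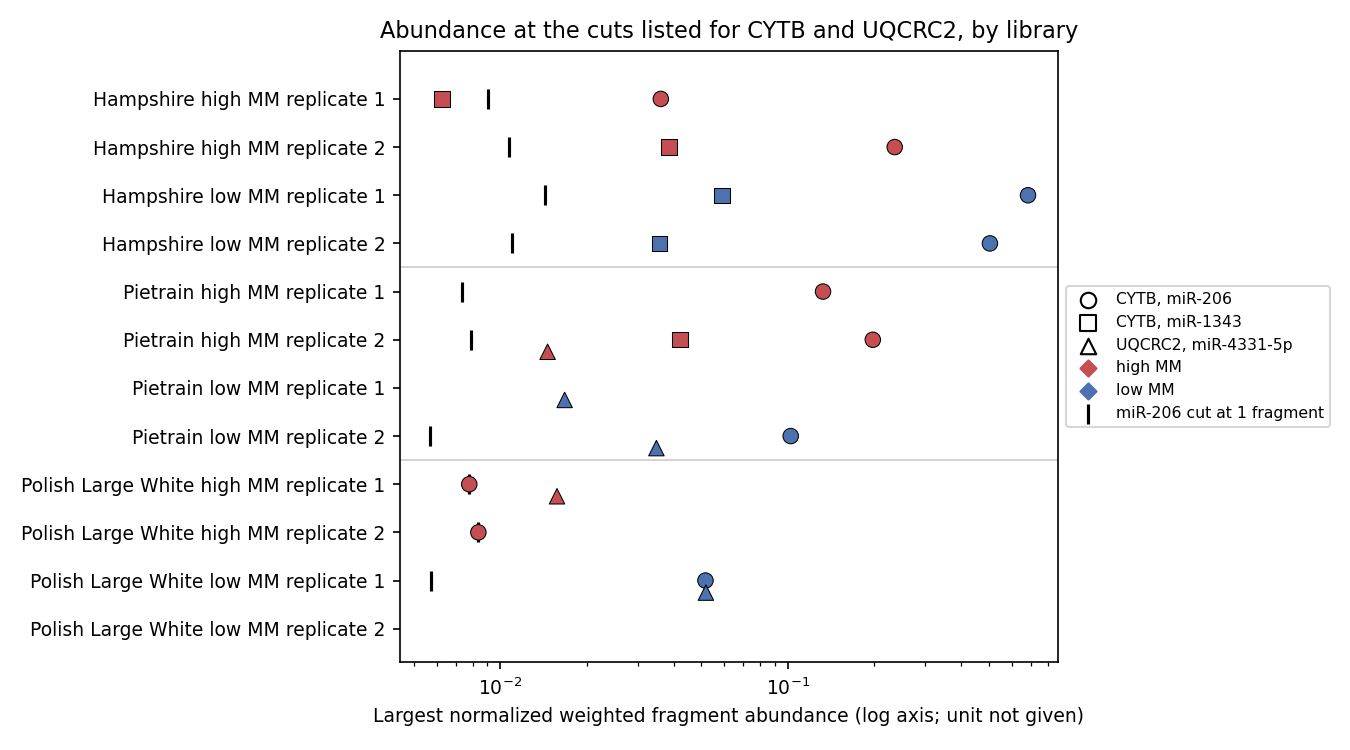
Largest normalized weighted fragment abundance (log axis, no unit given) of each cut in CYTB (circles, miR-206; squares, miR-1343) and UQCRC2 (triangles) in each of the 12 libraries, red for high and blue for low MM. Vertical ticks show the value that 1 fragment would have at the miR-206 cut; the Hampshire low-MM libraries stand highest at 0.684 and 0.504, and both Polish Large White high-MM libraries sit on the tick.

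The fragment abundances behind these values were small. At the miR-206 cut they were 48 and 46 in Hampshire low MM replicates 1 and 2, and 4 and 22 in Hampshire high MM replicates 1 and 2. Pietrain high MM replicates 1 and 2 had 18 and 25, and Pietrain low MM replicate 2 had 18. Polish Large White low MM replicate 1 had 9 and the high-MM libraries 1 each. None of the 146 rows was a multiple of 20, although 32.1% of all rows were. In 4 of the rows, from the Hampshire low-MM libraries, a window at the same cut carried 2 to 4 fragments in place of the 46 or 48 of the other windows.

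The miR-1343 cut in CYTB had lower values. It averaged 0.0363 ± 0.0191 (SD, n = 5 libraries). Hampshire low MM replicates 1 and 2 had 0.0591 and 0.0358, Hampshire high MM replicates 1 and 2 had 0.00625 and 0.0385, and Pietrain high MM replicate 2 had 0.0421. The value of 0.00625 stood at 1 fragment, the least that can be listed, and enters the mean. The Hampshire MM groups overlapped through the high-MM value of 0.0385, which lay between the low-MM values. In each of the 5 libraries that listed both cuts, the miR-206 cut had the higher value, by 4.68-fold to 14.1-fold. The gap was smaller in fragments, because matching positions were fewer at the miR-206 cut (30 to 46) than at the miR-1343 cut (61.8 to 66). Fragments at the miR-206 and miR-1343 cuts were 48 and 7, and 46 and 5, in Hampshire low MM replicates 1 and 2. They were 4 and 1, and 22 and 6, in Hampshire high MM replicates 1 and 2, and 25 and 11 in Pietrain high MM replicate 2. The ratio of normalized values was 11.6 and 14.1 in the Hampshire low-MM libraries and 4.68 to 6.10 in the other 3. The cuts were thus farthest apart in the Hampshire low-MM libraries.

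The miR-1343 cut was listed in 4 of 4 Hampshire libraries, 1 of 4 Pietrain libraries and 0 of 4 Polish Large White libraries. It was the only one of 54 named interactions in 4 or more libraries (1.85%) that was listed in every library of a breed and in at most 1 other. That criterion has the form of this cut's own listing, and listing chose the members, so the count is a description and was not tested. The listing in Hampshire high MM replicate 1 rests on 1 fragment. The miR-206 cut was listed in 4 Hampshire, 3 Pietrain and 3 Polish Large White libraries.

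Listing of CYTB followed the row class. All 10 libraries with shallower rows listed CYTB there, 322 of its 333 rows, and the 2 libraries with deeper rows only are the 2 that did not list it. Deeper rows were present in 7 libraries, and 2 of them, both Hampshire low MM, listed CYTB in those rows. CYTB made up 2.70% of shallower and 0.139% of deeper rows, while mitochondrial rows as a whole made up 26.5% and 21.0%. CYTB appeared in 6 high-MM libraries and in 4 at low MM, which is every high-MM library and every low-MM library that has shallower rows. Where a library gave the same cut in both classes, the deeper value was lower in 4 of 5 pairs. It was 0.596 to 1.08 times the shallower value. For UQCRC2, shallower and deeper rows gave 0.0349 and 0.0222 in Pietrain low MM replicate 2. They gave 0.0479 and 0.0518 in Polish Large White low MM replicate 1. For miR-206 in Hampshire low MM replicate 1, 48 fragments gave 0.684 in shallower rows and 338 fragments gave 0.648 in deeper rows. For miR-1343 in that library 7 and 40 fragments gave 0.0591 and 0.0456, and in Hampshire low MM replicate 2, 5 and 22 fragments gave 0.0358 and 0.0213.

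High and low MM were then compared in abundance at the miR-206 cut. The rule that selects the CYTB rows uses listing and not abundance, but CYTB was picked with earlier results of these data known. The mean was 0.103 ± 0.0997 at high MM (SD, n = 6) and 0.336 ± 0.308 at low MM (SD, n = 4), and the 2 groups overlapped. On the log2(value + 0.001) scale, centred within breeds, high MM lay below low MM by a difference of -1.63. The difference did not pass a two-sided exact permutation test within breeds (54 relabellings, p = 0.0741, adjusted p = 0.571 over 24 named interactions). A least-squares fit with breed as a term gave -1.67 ± 0.797 (SE). Of the 24 interactions 0 passed at an adjusted p of 0.05 (0%), and 0 had an unadjusted p under 0.05. The smallest exact permutation p that the relabellings allow was 0.00926 with all 12 libraries and 0.0185 for the miR-206 cut. At such limits no interaction here and no gene below could have passed after adjustment, so the 0 calls do not bear on a difference. At the level of genes, CYTB had the same difference, since this cut was its largest in every library, and 0 of 22 genes passed (0%; exact permutation p = 0.0741, adjusted p = 0.815 for CYTB). One of the 22, ND5 of complex I, had an unadjusted p under 0.05 (difference -1.82, exact permutation p = 0.0278, adjusted p = 0.611). In rows of the shallower class alone the difference was again -1.63 (exact permutation p = 0.0741, adjusted p = 0.278). Without Hampshire high MM replicate 1 it was -0.96.

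The direction in Pietrain was the opposite of that in the other breeds. The difference in Hampshire was -2.65 and in Polish Large White -2.54 on the same scale, and in Pietrain 0.66 the other way. When the tab names set the groups in Pietrain, all 3 breeds had low MM above high MM without overlap, the difference was -1.91, and the exact permutation p was 0.0185, the smallest that 54 relabellings can give (adjusted p = 0.463). Without Pietrain the difference was -2.53 (exact permutation p = 0.0556, the smallest possible with 7 libraries, adjusted p = 0.389). Among named interactions with values in both MM groups of Hampshire, 7 of 20 (35%) had high MM below low MM there without overlap, and 9 of 20 had high MM above low MM. Of those 7, 5 pair let-7 family members with a single position in ND5 and share their values, so the 7 lie at 3 positions. In all 3 breeds, values without overlap in one direction or the other were found for 2 of 7 (28.6%), the miR-206 cut and a miR-4331-5p cut at position 31442309 on chromosome 7.

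**Figure D3:**
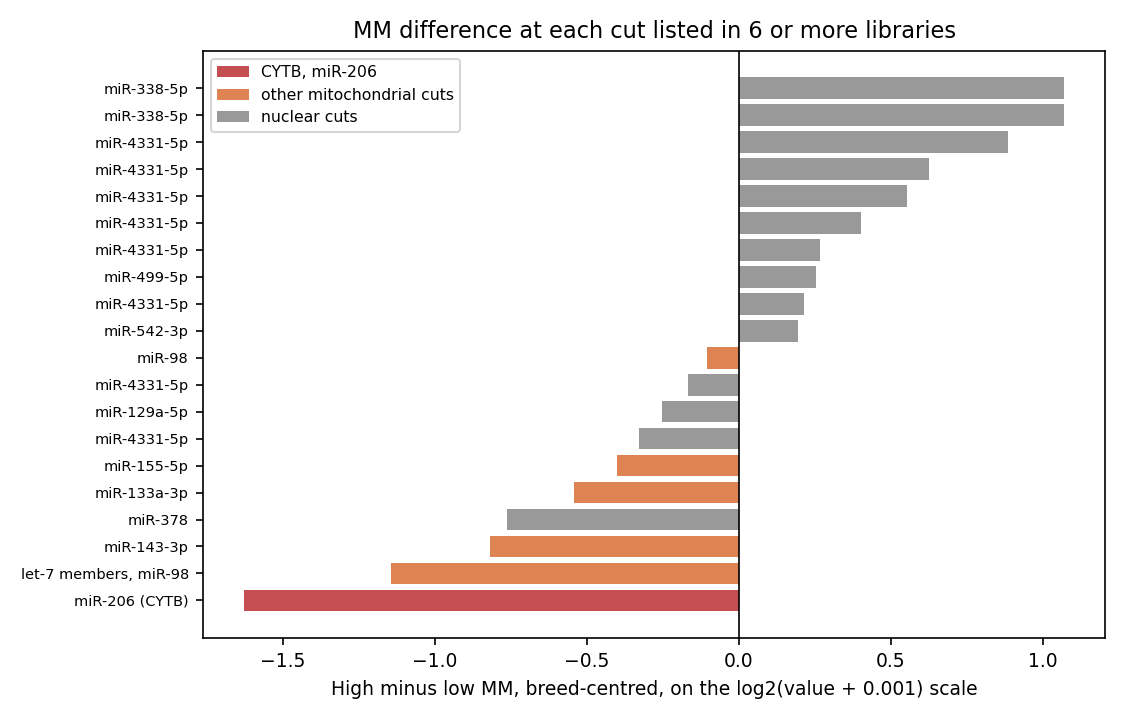
High minus low MM in normalized abundance for the 20 positions listed in 6 or more libraries, on the log2(value + 0.001) scale after centring on the breed, in order of size. The CYTB cut has the lowest value at -1.63, the other 5 mitochondrial positions are also below 0 on this scale (5 of 6 in weighted abundance, where 14 of 14 nuclear positions are below 0 too), and none passed the test. With so few relabellings none could have passed after adjustment.

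The CYTB cut had the most negative difference of the 20 positions in this comparison. In normalized abundance 6 of 6 mitochondrial positions, CYTB included, and 4 of 14 nuclear positions were lower at high MM, but in weighted abundance, which lacks the authors' scaling, 5 of 6 and 14 of 14 were, and in fragment abundance 5 of 6 and 12 of 14. The count by genome therefore depended on the scaling, whose method is not stated. By the tab names 3 of 6 mitochondrial positions were lower at high MM, so that count depended on the Pietrain groups. The median over the 20 positions was 0.04 in normalized and -1.20 in weighted abundance, in which CYTB, at -2.32, had 2 positions below it.

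The breeds were compared at the miR-206 cut in the same way. The mean was 0.365 ± 0.286 in Hampshire (SD, n = 4), 0.144 ± 0.0486 in Pietrain (SD, n = 3) and 0.0226 ± 0.0252 in Polish Large White (SD, n = 3). Pietrain lay above Polish Large White without overlap, and Hampshire overlapped both. Both Polish Large White high-MM values stood at 1 fragment, the least that can be listed. How many of the 24 interactions separate breeds in this way was not counted. The exact permutation p over 4200 relabellings was 0.0381, and the adjusted p over 24 interactions was 0.457, so the difference did not pass after adjustment. Of the 24 interactions 0 passed (0%), and 2 had an unadjusted p under 0.05, this cut and a miR-4331-5p cut at position 18564131 on chromosome 3 (exact permutation p = 0.0143). Leaving out a library that listed the cut raised the unadjusted p above 0.05 in 8 of 10 cases. Without Polish Large White high MM replicate 1 the exact permutation p was 0.111 and the adjusted p 0.639, and without Hampshire high MM replicate 1 they were 0.00357 and 0.0821. The breeds hold unequal numbers of high-MM and low-MM libraries in this test, because 2 low-MM libraries did not list the cut.

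Among the mitochondrial transcripts, 6 of 13 protein-coding genes were listed. ND5 of complex I was listed in 11 libraries, COX3 of complex IV in 10, COX1 in 8, ND1 in 2 and COX2 in 1. ND2, ND3, ND4, ND4L, ND6, ATP6 and ATP8 were unlisted. Of the mitochondrial cuts within a library, the miR-206 cut in CYTB had the highest normalized abundance in 7 of the 10 libraries that listed it. In the Hampshire low-MM libraries the next mitochondrial cut reached 0.0650 and 0.0555, against 0.684 and 0.504. The exceptions were Hampshire high MM replicate 2, where a COX2 cut had 0.285, and the Polish Large White high-MM libraries, where other cuts reached 0.0110 and 0.0174. These are abundances of cut ends and not transcript levels.

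UQCRC2 was listed in 5 libraries, 3 of Pietrain and 2 of Polish Large White, and in no Hampshire library. All 8 rows paired it with miR-4331-5p at position 24200943 on chromosome 3, from 6 windows with starts between 24200879 and 24200919, and all scored 4 in alignment. The category was 3 in 7 rows and 2 in 1 row. Normalized abundance was 0.0146 in Pietrain high MM replicate 2, and 0.0167 and 0.0349 in Pietrain low MM replicates 1 and 2. It was 0.0157 in Polish Large White high MM replicate 1 and 0.0518 in Polish Large White low MM replicate 1. Both high-MM values lay below the 3 low-MM values, a description over 5 libraries that was not tested. The high-MM values came from shallower rows, while 0.0167 and 0.0518 at low MM came from deeper rows. Each value is shared with other miR-4331-5p positions of its library, as described below. How many other items have this order was not counted, so it cannot be called particular to UQCRC2. By the tab names, which exchange the Pietrain groups, the 2 groups overlap.

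**Figure D4:**
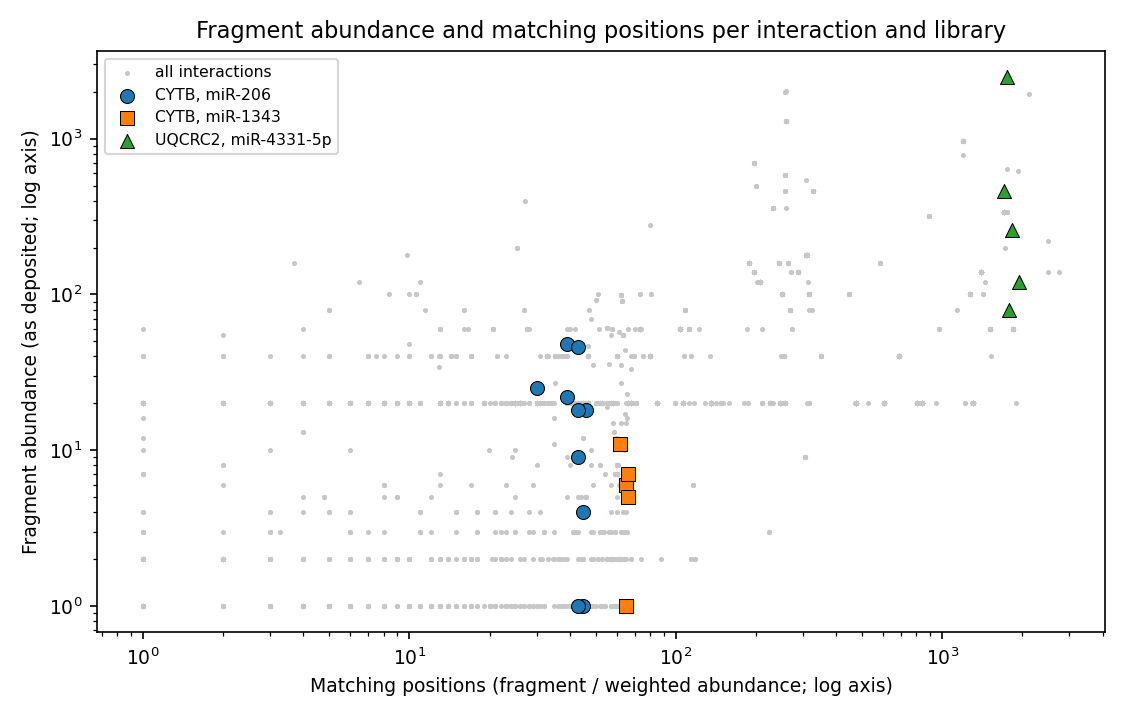
Fragment abundance against the number of matching positions (both log axes) for every interaction in a library (grey), with the CYTB cuts of miR-206 (circles) and miR-1343 (squares) and the UQCRC2 cut (triangles). The CYTB points lie between 30 and 66 matching positions and the UQCRC2 points between 1709 and 1947.

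The UQCRC2 rows had high numbers of matching positions, whichever of genome places and windows these count. They ran from 1709 to 1947, against a median of 106 for nuclear interactions. Fragment abundance was 80 to 2480, and all 8 values were multiples of 20. In each library other miR-4331-5p positions carried exactly the same fragment abundance and the same weighted abundance. There were 13 such positions, UQCRC2 included, among 47 in Polish Large White high MM replicate 1. In Pietrain low MM replicate 2 there were 39 of 83 in shallower rows and 27 of 78 in deeper rows. Across the 5 libraries the share was 25.3% to 47.0% of the miR-4331-5p positions of a library and row class. Such positions named 14 to 30 genes in a library and row class, UQCRC2 included, and their values cannot be told apart. miR-4331-5p was listed with 407 other genes, and UQCRC2 made up 0.311% of its 2576 rows.

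The UQCRC2 rows also had a counterpart on the other strand. The position held 16 rows, 8 on strand -1, all naming UQCRC2, and 8 on strand 1 with the same windows and abundances. Of the latter, 7 named PDZD9, a gene for a PDZ domain protein, and 1 named no gene. PDZD9 was listed nowhere else, and these rows do not show which of the strands carried the fragment.

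Other parts of complex III were rarely listed. Of 19 genes for its subunits and assembly factors, 5 were listed, CYTB and UQCRC2 included. UQCRB, a subunit that helps to bind ubiquinone, was listed once, in Polish Large White low MM replicate 2, with an unnamed small RNA and an abundance of 20. UQCR10, a small subunit near cytochrome c1, was listed once, in Pietrain low MM replicate 2, with miR-4331-5p, an abundance of 260 and 1821 matching positions, the same fragment abundance as UQCRC2 in that library. LYRM7, an assembly factor that holds the Rieske protein, had 2 rows in Hampshire high MM replicate 2, also with miR-4331-5p. UQCRC1, UQCRFS1, CYC1, UQCRH, UQCRQ and UQCR11 were unlisted. Of 17 genes for the electron carriers and complex II that feed complex III, 2 were listed, in 1 library each. They were COQ8A, a kinase-like protein of ubiquinone synthesis, and ETFB, a subunit of the electron transfer flavoprotein. No SDH subunit and no CYCS, cytochrome c, was listed.

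The gene most like CYTB in its listing was ACTA1, with a Jaccard index of 0.900 over the 12 libraries, all 9 of its libraries being among the 10 of CYTB. CA3, a muscle carbonic anhydrase, and PPP1R2, an inhibitor of protein phosphatase 1, followed at 0.833, a value shared by 3 genes and set by their presence in all 12 libraries. The gene most like UQCRC2 was PDZD9, with an index of 1 from the same windows. PM20D2 and GNB1 followed at 0.667, each sharing 4 libraries with it.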

How the data were processed

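PARE libraries of loin muscle RNA were sequenced by the authors, who used CASAVA 1.8.2 and FastQC, per the submitters' processing notes. PAREsnip made the deposited tables, per the file headers. No source used here gives the aligner, build, annotation, small RNA input or row filter. The deposited category, alignment score and fragment abundance were used as score values. The deposited p-value is rounded to 2 decimals. Weighted abundance (fragments over matching positions) and normalized abundance (scaled by the authors in an unstated way) were used as deposited signal values. A total of 10 weighted values that exceed the fragment abundance, and look like dates, were set to missing.

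Calculations used pandas 2.3.3, numpy 2.4.6 and matplotlib 3.10.9 under Python 3.11.15. A cut is the sum of window start and cleavage position. Values were log2(normalized abundance + 0.001), the largest row per library, and libraries that did not list an item were left out. Items in 6 or more libraries, with at least 2 per MM group, were tested by two-sided exact permutation within breeds, or of breed labels, with Benjamini-Hochberg adjustment over all items tested (threshold 0.05). The code of the tests was run on simulated data with large shifts and all 12 libraries listed, which does not show their power here. Nothing in the labels states that the samples of a group are independent animals of separate litters. Each p-value is the share of relabellings with a statistic at least as large, and applies to these samples only. Genes were named by rule: the 2 members with all their small RNAs, the listed members of fixed complex III, mitochondrial and electron carrier lists, and the 3 genes with the highest Jaccard index of listing. The members and lists were chosen with earlier results of these data known. Alternatives covered the Pietrain groups, left-out libraries and breeds, replicate blocks, pseudocounts, scaling, row class, category and listing minimum. The least-squares fit, the omission of Hampshire or Polish Large White, and the crossed block were chosen after seeing the data.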

Additional observations from a re-analysis of the deposited data

Results flagged for a closer look

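The MM difference at the miR-206 cut in CYTB ran in opposite directions between breeds. In Hampshire both high-MM libraries lay below both low-MM libraries, and in Pietrain both high-MM libraries lay above the single low-MM library that listed the cut, so that the Hampshire difference less the Pietrain difference was -3.31 on the log2(value + 0.001) scale. The Pietrain difference less the Polish Large White difference was 3.19, with a single low-MM library in each. These differences between breeds were not tested, and they rest on the titles of the Pietrain libraries, which the tab names exchange.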

How the results depend on the processing

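The MM difference at the miR-206 cut kept its direction, and no call, under all 27 alternatives, with an adjusted p from 0.278 to 0.881. Leaving out each library in turn gave -2.17 to -0.96, and without Hampshire or Polish Large White it was -0.94 or -1.29. With a pseudocount of 1 it shrank to -0.20, and with weighted or fragment abundance it was -2.32 or -2.37, against medians over positions of -1.20 and -1.25. The same held for CYTB as a gene under 26 alternatives (adjusted p 0.175 to 1; -0.95 by the median over rows), and for the comparison of breeds under 18 (adjusted p 0.0821 to 0.778; 1.96 to 4.34 with a library left out, as the between-breed variance). The count of calls was 0 in every setting, for interactions and genes, also when a library was left out (0 to 0). With the main settings no call between MM groups could have been reached, so that count of 0 does not bear on a difference. With the replicate block the difference was again -1.63 (16 relabellings, exact permutation p = 0.188, adjusted p = 0.857). Numbers need not pair the samples: same-numbered deviations correlated at -0.235 for the 6 Hampshire interactions, -0.962 for 9 of Pietrain and -1 for 3 of Polish Large White. Crossed pairs gave 0 calls as well. Listing moved most. CYTB was listed in 2 more high-MM than low-MM libraries by the titles, and the surplus was 0 by the tab names or in categories 0 to 2, 1 without Pietrain, and 1 to 3 with a library left out. For UQCRC2 the surplus was -1 by the titles. It was 1 by the tab names or in categories 0 to 2, 0 in shallower rows or without Pietrain, and -2 to 0 with a library left out. Read depth is unknown, and with miR-206 values at 1 fragment in 2 libraries a lower level could not have been listed there.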
